A study of Drosophila melanogaster with 4 samples.

Results

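The cytosolic ribosomal protein genes of adult Drosophila melanogaster were followed in RNA recovered with the poly(A)-binding protein (PABP) and in the RNA of whole flies. Members were the genes whose symbol starts with RpL, RpS or RpLP followed by a number, 92 of the 17806 named genes in the count table, of which 54 belong to the large and 38 to the small subunit. Genes of the same ribosome with other symbols, such as sta and Rack1, are therefore not members and are given separately. The rule for members uses names and no measured value, though this gene family was picked with earlier results of these data known.

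Each cytosolic ribosome joins a small subunit, which reads the mRNA, to a large subunit, which forms the peptide bonds. The cell needs the proteins of both subunits in equal amounts, and flies with a single working copy of many of these genes develop slowly and have thin bristles, the Minute phenotype. A few ribosomal proteins in flies have a second gene, and several second copies are known for their expression in the germline. PABP binds the poly(A) tail that ribosomal protein mRNAs share with nearly all other mRNAs.

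The study holds 4 libraries, 2 called PABP IP and 2 called input, each made from 200 adult flies (100 males and 100 females) that were powdered and crosslinked with ultraviolet light. For PABP IP, RNA was recovered with PABP on FLAG beads, and the labels call its cell type intestinal progenitors, that is, gut stem cells with their undifferentiated daughters. For input, RNA was taken from the whole extract before precipitation and is assigned to all cells. The labels give the stage as adult, give no genotype, exact age or treatment for either group, and do not name the driver of the tagged PABP. Nor do they state if replicates were collected separately, so the p-values here cover only the spread among these 4 libraries, part of which can be technical. A mock precipitation and total RNA from purified progenitors were not analysed here. In these bulk samples, fewer cells of a type and less RNA per cell cannot be told apart, and neither can expression in progenitors and binding by PABP.

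Total gene counts were 8987420 and 10761349 in PABP IP 1 and 2 and 2464629 and 3346231 in input 1 and 2. The label of the IP was checked against 8 progenitor markers, among them esg, Dl and Sox21a, all of which were higher in the IP, and none of which was at 0. Their summed level was 10005 and 10926 CPM in the IP and 112 and 111 CPM in the input (CPM, counts relative to a library size scaled by the trimmed mean of M-values, TMM). Of 6 enterocyte markers 5 were lower and Myo31DF was higher on this scale, and all 6 muscle markers were lower. Among all genes tested 38.8% were lower and 37.1% higher.

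Ribosomal protein genes took a smaller share of the reads bound by PABP than of the total RNA. They held 4.49% and 3.68% of all gene counts in PABP IP 1 and 2 and 9.33% and 10.1% in input 1 and 2, so that both IP libraries lay below both input libraries. The mean share (± SD, n = 2 per group) was 4.09% ± 0.575 for the IP and 9.74% ± 0.571 for the input, a ratio of input to IP of 2.38. Most of this fall was shared by the typical gene. Relative to total counts, without TMM scaling, the median log2 fold change of IP over input was -0.95 for all genes tested and -1.23 for the members. With 2 libraries against 2, an exact two-sided permutation test cannot give a p below 0.333. The large-subunit genes made up 2.76% and 2.24% of the IP counts and 5.83% and 6.37% of the input counts, and the small-subunit genes 1.74% and 1.44% against 3.51% and 3.76%.

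**Figure D1:**
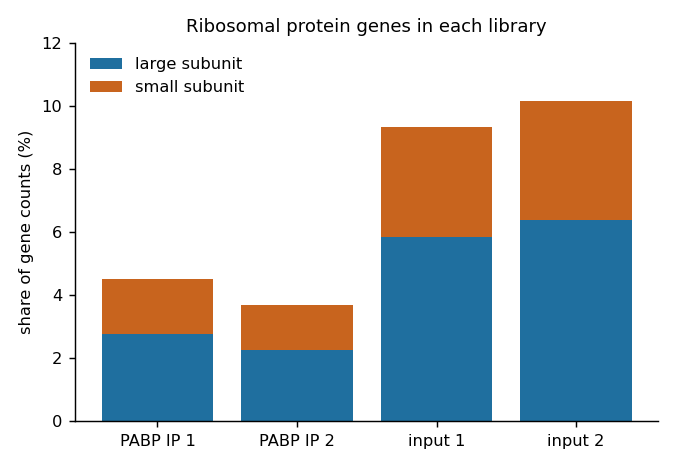
Share of all gene counts (percent, y axis) held by ribosomal protein genes in each of the 4 libraries (x axis), split into large subunit (blue) and small subunit (orange). Both PABP IP bars end below 5% and both input bars end above 9%.

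Gene by gene, the number of members called lower depended on how the libraries were scaled. On the TMM scale, 51 of the 85 members tested were lower in the IP, 3 were higher and 31 were not called (edgeR's quasi-likelihood test with p adjusted by Benjamini-Hochberg over all 9989 genes tested, threshold 0.05). Over all genes tested, 38.8% were called lower and 37.1% higher. The members' median log2 fold change of IP over input was -0.38, against -0.10 for all genes tested. Both IP libraries lay below both input libraries for 66 of the 85 members, where 46.3% of all genes tested did, and above them for 3. The groups thus did not overlap for 69 of the 85 members, a smaller part than the 88.6% of all genes tested.

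Under library size alone, which carries no TMM correction, all 85 members were lower (63.5% of all genes tested were lower and 22.1% higher), with a median of -1.23 against -0.95 for all genes. With upper-quartile factors 82 were lower and none higher (background 57.3% lower and 25.8% higher), and with the authors' size factors 82 were lower and none higher (background 53.9% and 27.5%). The distance between the members' median and that of all genes was -0.29 in the main setting. It ran from -0.29 to -0.26 over 11 settings that used all 4 libraries. A change of scaling shifts all genes by nearly the same amount, so this distance could hardly move with it. Leaving out 1 library in turn moved this distance between -0.40 (without PABP IP 1) and -0.17 (without PABP IP 2). In the authors' deposited table, 78 of 90 members had an adjusted p below 0.05 and a lower level in the IP, and none had a higher one, where 38.5% of the genes in that table were lower and 21.3% higher.

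**Figure D2:**
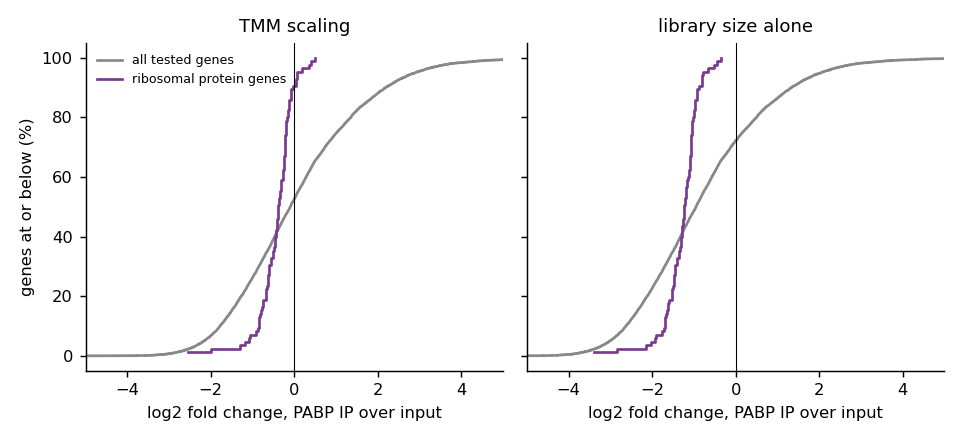
Cumulative share of genes (percent, y axis) at or below each log2 fold change of PABP IP over input (x axis), for the 85 ribosomal protein genes tested (purple) and all 9989 genes tested (grey), with TMM scaling on the left and library size alone on the right. The purple curve is the steeper one in both panels, and the change of scaling moves both curves to the left together.

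The members moved as a narrow band. The interquartile range of their log2 fold changes was 0.44, from -0.64 to -0.20, against 2.08 for all genes tested. A total of 82 members had at least 100 counts in every library. Over these 82 genes, the log2 ratio of PABP IP 1 to input 1 and that of PABP IP 2 to input 2, which share no library, correlated at Pearson's r = 0.829 and Spearman's rho = 0.735 across genes, which are not independent replicates. Without the genes of duplicate pairs, r was 0.758 over 63 genes. The order of members was therefore similar in both pairs of libraries, while their common level was not: the median ratio was -0.21 in the first pair and -0.56 in the second. Between replicates, the members' median log2 CPM was 0.24 higher in PABP IP 1 than in PABP IP 2, and the median difference of input 1 minus input 2 was -0.12.

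**Figure D3:**
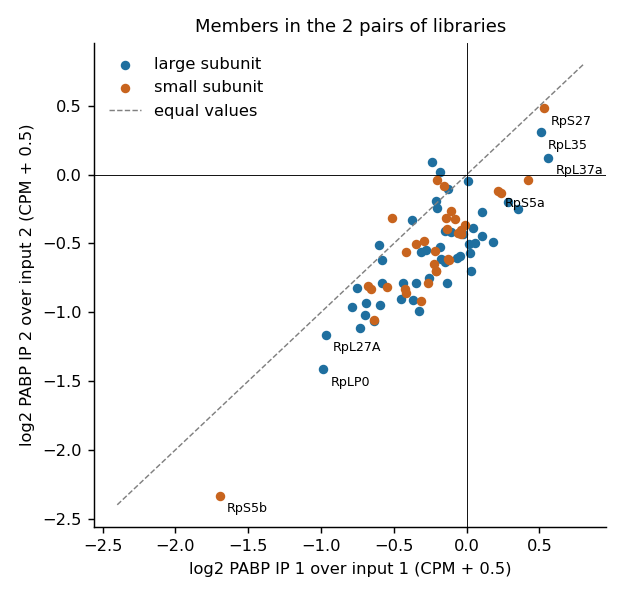
Log2 ratio of PABP IP 1 to input 1 (x axis) against log2 ratio of PABP IP 2 to input 2 (y axis), from TMM-normalised CPM with 0.5 added, for the 82 ribosomal protein genes with at least 100 counts in every library. Most points lie below the dashed line of equal values, and RpS5b is the lowest point in both pairs of libraries.

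Large and small subunit genes had similar medians on the TMM scale. Of the 51 large-subunit genes tested 31 were lower and 2 higher, with a median of -0.35. Of the 34 small-subunit genes 20 were lower and 1 higher, with a median of -0.38. Thus 60.8% and 58.8% were lower, where 38.8% of all genes tested were. The ratio of summed large to summed small counts, which does not depend on scaling between libraries, was 1.59 and 1.56 in PABP IP 1 and 2 and 1.66 and 1.69 in input 1 and 2. Both IP libraries lay below both input libraries. On the log2 scale the ratio (± SD, n = 2 per group) was 0.65 ± 0.02 for the IP and 0.75 ± 0.02 for the input, a difference of -0.09 with an exact two-sided permutation p of 0.333, the smallest that this design allows. The difference was -0.05 without the genes of duplicate pairs and -0.04 when members were averaged on the log2 CPM scale instead of summed. By the sums the large subunit was relatively lower in the IP, while by the medians the small subunit was.

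The stalk, a flexible arm of the large subunit that recruits the translation factors that split GTP, held the abundant member with the largest fall after RpS5b. RpLP0, which anchors the stalk, had 842 and 656 CPM in PABP IP 1 and 2 and 1668 and 1751 CPM in input 1 and 2. The input level was 2.28-fold higher (log2 fold change -1.19 ± 0.14 SE, edgeR adjusted p = 6.62e-07). RpLP2, an acidic protein that dimerises on that anchor, followed with 894 and 696 CPM in the IP and 1449 and 1414 CPM in the input (log2 -0.85 ± 0.14 SE, adjusted p = 2.83e-05). Its partner RpLP1 changed by less, from 1363 and 1352 CPM in the input to 1095 and 913 CPM in the IP (log2 -0.43 ± 0.13 SE, adjusted p = 0.00634), and this call was lost without PABP IP 2 (-0.32). In none of these 3 genes did the groups overlap, as was so for 88.6% of all genes tested. RpL12, which binds at the stalk's base, was not called (-0.17, adjusted p = 0.222), and its IP and input libraries overlapped. The 4 genes thus ranged from -1.19 to -0.17. Groups by position in the ribosome were drawn after the values were seen and carry no test.

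The 5S particle, in which RpL5 and RpL11 hold the 5S ribosomal RNA, fell evenly. RpL5 had 1158 and 1027 CPM in the IP and 1951 and 1818 CPM in the input (log2 -0.79 ± 0.13 SE, adjusted p = 4.04e-05). RpL11 had 507 and 402 CPM in the IP and 787 and 841 CPM in the input (log2 -0.84 ± 0.13 SE, adjusted p = 1.35e-05). Of 7 proteins around the exit of the tunnel through which the new chain leaves, 4 were lower and 1 higher. Among all genes tested 38.8% were lower and 37.1% higher. The log2 fold changes of the 7 ran from -0.64 for RpL23A to 0.41 for RpL35. These 2 genes encode neighbours at the exit. RpL23A had 1416 and 1144 CPM in the IP and 1832 and 2154 CPM in the input, and RpL35 had 877 and 836 CPM in the IP and 615 and 675 CPM in the input, so they moved in opposite directions on the TMM scale. Other genes, CG7974 and Uhg7, overlap 43.1% of RpL23A and make its count uncertain.

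The large-subunit genes RpL27A and RpL23 came next among abundant members. RpL27A had 544 and 480 CPM in the IP and 1065 and 1075 CPM in the input (log2 -1.06 ± 0.12 SE, adjusted p = 4.04e-07). RpL23 changed by -0.92 ± 0.13 (SE, adjusted p = 4.05e-06). In the small subunit the lowest of the single-copy genes was RpS9 at -0.84 ± 0.13 (SE, adjusted p = 1.25e-05), whose count is uncertain because an antisense RNA covers 50.2% of the gene.

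At the other end, 3 members were higher in the IP on the TMM scale. RpS27, a zinc-binding protein of the small subunit, had 848 and 838 CPM in PABP IP 1 and 2 and 587 and 600 CPM in input 1 and 2, a 1.42-fold higher level (log2 0.51 ± 0.11 SE, adjusted p = 0.000705). A gene for an intronic RNA overlaps 35.2% of RpS27, so its count is uncertain. RpL35 was 1.33-fold higher (log2 0.41 ± 0.12 SE, adjusted p = 0.0048). RpL37a, a zinc-binding protein of the large subunit, had 909 and 771 CPM in the IP and 616 and 708 CPM in the input (log2 0.34 ± 0.13 SE, adjusted p = 0.0212). None of the 3 overlapped between groups, where 88.6% of all genes tested did not. Without input 1, RpS27 was the only member called higher, as RpL35 (0.34) and RpL37a (0.25) lost their calls. The log2 fold change of RpL37a also lost its call without PABP IP 1 (0.24) and with the replicate number as a block (0.34, adjusted p = 0.0789). With library size alone all 3 were lower (RpS27 -0.35, RpL35 -0.44, RpL37a -0.51), and with the authors' size factors RpS27 stood at 0.0087. They remained the 3 highest members under both of these scalings. Their direction thus depends on where the zero point is set, and with upper-quartile factors too all 3 stood below 0. RpS24 and RpS10b, the remaining members among the 5 highest, were not called (0.19 and 0.06).

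**Figure D4:**
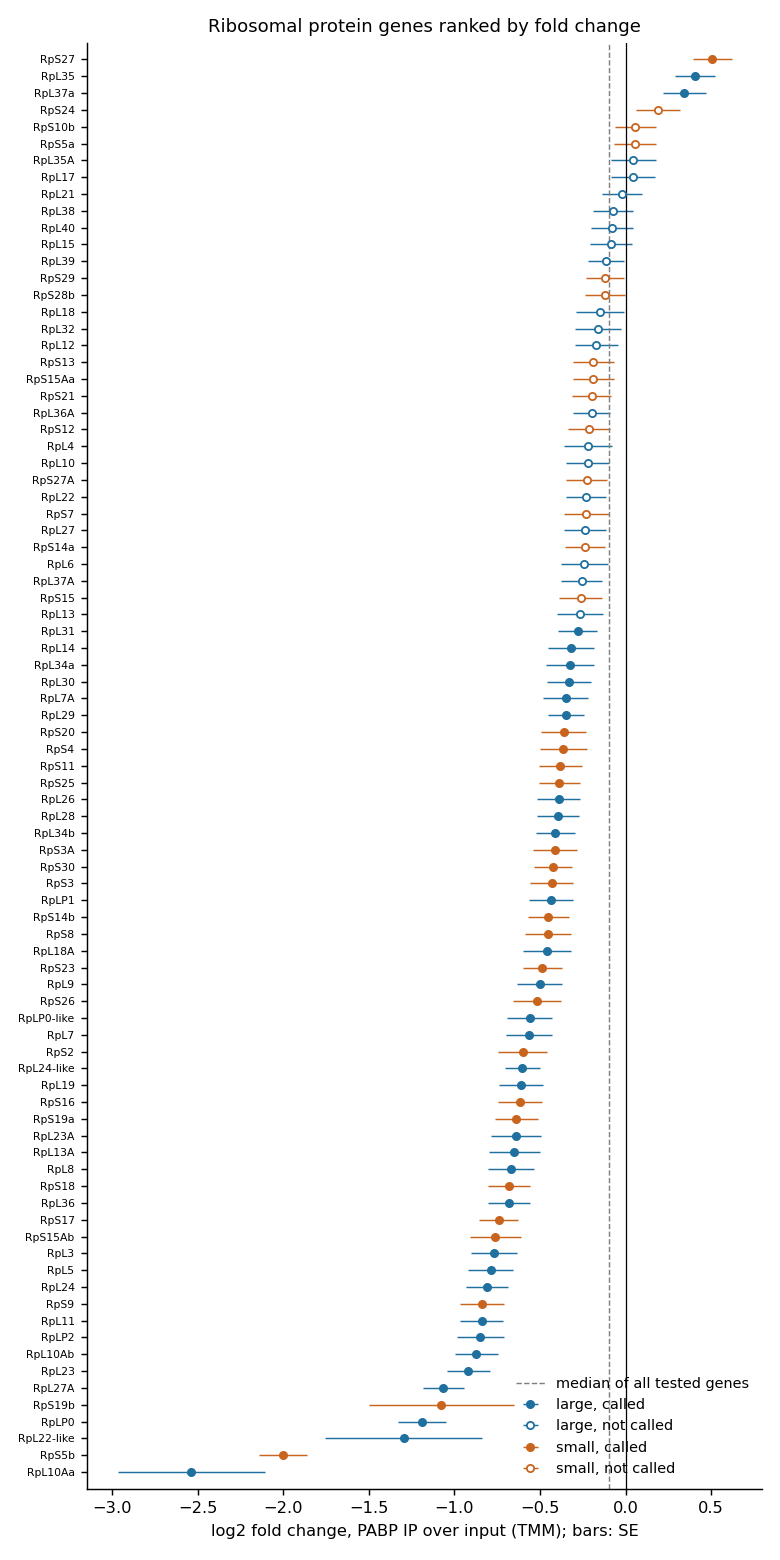
Log2 fold change of PABP IP over input (x axis, TMM scale, bars are SE) for the 85 ribosomal protein genes tested, ranked from lowest at the bottom to highest at the top; filled points passed an adjusted p of 0.05, and the dashed line is the median of all genes tested. Large (blue) and small (orange) subunit genes are mixed along the whole range, and 5 genes with a second copy or of the stalk lie at the low end.

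The most abundant members per kilobase of gene in the input were RpLP2 (2370 CPM per kb), RpLP1 (1487), RpL7 (1132), RpL21 (1115) and RpS18 (1109). The length used is the gene's whole span, introns included, so genes with long introns stand too low on this scale. In the IP the first 2 remained at the top, at 1317 and 1100 CPM per kb, and RpL21 stood level with RpLP1 at 1100. RpL21 had 843 and 840 CPM in the IP and 838 and 868 CPM in the input and was not called (log2 -0.02 ± 0.12 SE, adjusted p = 0.884). RpL7 and RpS18 were lower in the IP, by -0.56 and -0.68. The ubiquitin fusion genes, whose product is cut into ubiquitin and a ribosomal protein, were not called, RpS27A at -0.23 (adjusted p = 0.0969) and RpL40 at -0.08 (adjusted p = 0.554). Ip259 overlaps 59.8% of RpS27A, so its count is uncertain.

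In duplicate genes both copies are counted in the same library, and their ratio needs no scaling between libraries. RpS5a and RpS5b encode the same head protein of the small subunit, and RpS5b is known as the copy active in the ovary. RpS5b had 211 and 153 CPM in PABP IP 1 and 2 and 686 and 775 CPM in input 1 and 2, a 4.01-fold higher level in the input (log2 -2.004 ± 0.14 SE, adjusted p = 7.36e-10). RpS5a had 811 and 677 CPM in the IP and 699 and 734 CPM in the input and was not called (0.05 ± 0.12 SE, adjusted p = 0.699), but with library size alone it was lower (-0.80). RpS5b therefore made up 20.7% and 18.5% of the pair's counts in the IP and 49.5% and 51.3% in the input. The 95% Wilson intervals, which cover counting error only, were 19.7% to 21.6% and 17.5% to 19.4% in the IP and 48.1% to 51.0% and 50.2% to 52.5% in the input. The log2 ratio of RpS5a to RpS5b was 2.07 higher in the IP, and 1.97 to 2.17 higher with any 1 library left out. The exact permutation p was 0.333, the smallest possible with 2 libraries against 2. The span of RpS5a holds 14 genes of small nucleolar RNAs, whose part in the count of RpS5a was not tested.

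Beside this change stood a fall of female germline markers. Of 9 markers tested 7 were lower in the IP, with a median of -1.90, where 38.8% of all genes tested were lower. The markers grk and BicD were higher on the TMM scale and not called with library size alone. The summed level of the female germline markers was 628 and 646 CPM in the IP and 1828 and 1678 CPM in the input. As zpg is fully covered by Rexo5, no absence of its RNA can be read from its 0 counts in all 4 libraries. Other genes overlap 92.6% of nos, 86.9% of osk and 82.8% of vas, so the counts of these markers are uncertain. The part of the germline in the fall of RpS5b was not tested. Among these markers orb, a translational regulator of the oocyte, stood at -2.28, and aub, a piRNA pathway gene, at -2.04.

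The other germline-associated copies were rare in both groups. RpL10Aa, RpL22-like and RpS19b passed the count filter only through the input libraries, which favours a lower value in the IP. RpL10Aa, the minor copy of the gene for the L1 stalk protein, had 5 and 7 counts in PABP IP 1 and 2 and 15 and 23 in input 1 and 2, and had the lowest value of all members tested (log2 -2.54 ± 0.43 SE, adjusted p = 4.55e-05). Its major partner RpL10Ab fell as well, from 1331 and 1310 CPM in the input to 771 and 672 CPM in the IP (log2 -0.87 ± 0.13 SE, adjusted p = 7.43e-06). RpL10Aa took 0.0949% and 0.133% of the pair's counts in the IP and 0.343% and 0.386% in the input. RpL22-like, a copy known from the male germline, had 17 and 7 counts in the IP and 11 and 21 in the input (log2 -1.30 ± 0.46 SE, adjusted p = 0.0172). This call was lost without PABP IP 2 (-0.72), without input 2 (-1.02) and in DESeq2 (-1.17). Its partner RpL22 was not called (-0.23, adjusted p = 0.0855), and another RNA gene overlaps 46.5% of it. RpS19b, known from the female germline, had 10 and 19 counts in the IP and 9 and 24 in the input (log2 -1.08 ± 0.42 SE, adjusted p = 0.0297), and its call was lost without PABP IP 1 (-0.76), without input 2 (-0.47) and in DESeq2 (-0.95). Its partner RpS19a fell by 0.64 on the log2 scale. RpS19b's share of the pair, 0.246% and 0.493% in the IP and 0.345% and 0.591% in the input, overlapped between groups. Of 7 testis markers tested 5 were lower and mia was higher, where 38.8% of all genes tested were lower. The summed level of these markers was 117 and 105 CPM in the IP and 265 and 251 CPM in the input. As sa is fully covered by rgn, no absence of its RNA can be read from its 0 counts. The part of the testis markers in the fall of RpL22-like was not tested.

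RpS15Ab, the minor copy beside RpS15Aa, had 145 and 162 counts in the IP and 112 and 166 in the input. It fell by 0.76 on the log2 scale (SE 0.15, adjusted p = 0.000223), while RpS15Aa was not called (-0.19, adjusted p = 0.156). Its share of the pair was 2.52% and 2.60% in the IP and 3.71% and 3.78% in the input, without overlap. RpS14a and RpS14b are tandem copies of one protein whose near-identical reads cannot be cleanly divided. RpS14b was called lower (-0.45, adjusted p = 0.00267; not called in DESeq2, -0.35) and RpS14a was not (-0.24, adjusted p = 0.0723). The share of counts given to RpS14b was 18.5% and 17.4% in the IP and 20.1% and 20.3% in the input. RpL34a took 22.2% and 18.8% of its pair in the IP and 18.8% and 20.5% in the input, so the groups overlapped. Both RpL34 copies were called lower (RpL34b -0.41, RpL34a -0.33), though RpL34a overlapped between groups and lost its call without PABP IP 2 (-0.10), without input 2 (-0.21), with RLE factors (-0.26) and in DESeq2 (-0.22).

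**Figure D5:**
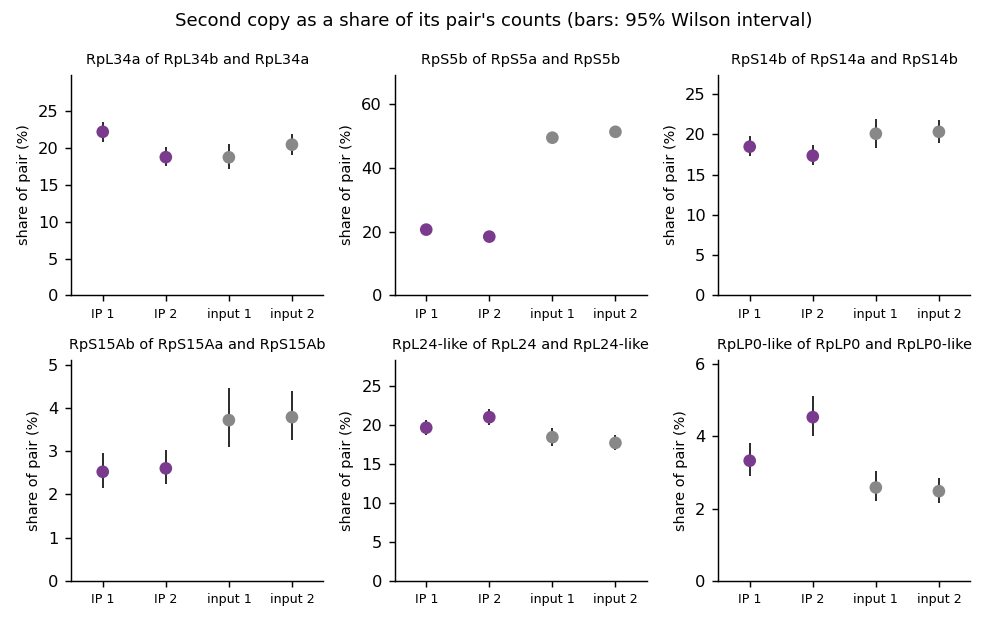
Second copy as a share of its pair's counts (percent, y axis, from 0) in PABP IP 1 and 2 (purple) and input 1 and 2 (grey) for the 6 pairs in which both genes had at least 100 counts in all; bars are 95% Wilson intervals. RpS5b falls from about 50% in the input to about 20% in the IP, while RpL34a overlaps between groups.

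In the like pairs with enough counts, the share moved the other way. RpL24-like and RpLP0-like are related to yeast factors that hold the place of a ribosomal protein during assembly in the nucleus and are later exchanged for it. RpL24-like fell from 255 and 247 CPM in the input to 170 and 160 CPM in the IP (log2 -0.60 ± 0.10 SE, adjusted p = 3.65e-05), and RpL24 changed by -0.81 ± 0.12 (SE, adjusted p = 1.46e-05). The share of RpL24-like was thus higher in the IP, at 19.6% and 20.9% against 18.4% and 17.7%. RpLP0-like changed by -0.56 ± 0.13 (SE, adjusted p = 0.00119; not called in DESeq2, -0.46), less than RpLP0. Its share of the pair was 3.33% and 4.53% in the IP and 2.59% and 2.48% in the input. The log2 ratio of RpLP0 to RpLP0-like differed by -0.64, and by -0.40 without PABP IP 2. For both pairs the like copy gained share, while RpS5b, RpS14b and RpS15Ab lost it. Of the 6 pairs with at least 100 counts for each gene, 5 had log2 ratios that did not overlap between groups. Each had an exact permutation p of 0.333, the smallest possible. They include RpS14a and RpS14b, whose reads cannot be cleanly divided. Among single genes 88.6% of all tested did not overlap, and such a share for gene pairs at large was not computed.

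The 7 members that were not tested had too few counts. RpL41, RpS10a and RpL7-like had 0 counts in all 4 libraries. RpL41 lies wholly inside NaCP60E and RpS10a inside tau, and another gene covers 98.9% of RpL7-like, so no absence of their RNA can be read from these counts. RpS6, the ribosomal target of S6 kinase, had only 8 and 6 counts in the IP and 1 and 11 in the input, and the pseudogene CR33222 covers 98.3% of it. RpL37b had 6 and 3 counts in the IP and 5 and 3 in the input, beside 6207 of RpL37a in PABP IP 1, and RpS28-like had 5 and 4 against 1 and 3. RpS28a had 2 counts in PABP IP 1 and 0 elsewhere, beside 5178 counts of RpS28b in that library. RpS28b (-0.12, adjusted p = 0.35) and RpS10b (0.06, adjusted p = 0.675), the major copies of their pairs, were not called.

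Features that the members share beyond their names were compared with the fold changes. The gene spans of 28 members hold 74 genes of small nucleolar RNAs, guides for the modification of ribosomal RNA, with 14 in RpS5a alone. The 27 hosts that were tested had a median log2 fold change of -0.36 with 18 lower and 0 higher, and the 58 tested members without such a gene had -0.39 with 33 lower and 3 higher. Among all genes tested 38.8% were lower and 37.1% higher. No test was made over these groups of members. The members are short: their median span was 1333 bases against 2683 bases for all genes tested. Across all 9989 genes, log2 fold change and span correlated at a Spearman rho of 0.282, while over the 82 well-counted members the correlation was -0.0199. Over the same 82 members the fold change fell with the level in the input (rho = -0.419), a relation whose 2 measures share the input libraries.

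Other genes of the same machinery were set beside the members from lists chosen with earlier results of these data known. The ribosome-associated scaffold gene Rack1 and the small-subunit gene sta fell like the members, by 0.41 and 0.77 on the log2 scale. Of 7 translation elongation factors 3 were lower and none higher, with a median of -0.22, so 42.9% were lower where 38.8% of all genes tested were. The translocase gene eEF2 changed by -0.76 ± 0.15 (SE, adjusted p = 0.000232), eEF1beta by -0.47, and eEF1alpha2, the minor of the genes for the factor that delivers tRNA, by -2.62 ± 0.14 (SE, adjusted p = 2.59e-11). Its major counterpart eEF1alpha1 was not called (-0.06, adjusted p = 0.737), and neither was eEF5 (0.25, adjusted p = 0.0898).

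Ribosome biogenesis genes, which act in the nucleolus, had calls in both directions on the TMM scale, at shares near those of all genes tested. Of 21 tested 7 were higher and 10 lower, with a median of -0.12, that is 33.3% higher and 47.6% lower where 37.1% and 38.8% of all genes were. Tif-IA, an initiation factor of RNA polymerase I, was higher by 2.11 ± 0.13, Surf6 by 1.44 ± 0.13 and Nopp140 by 0.999 ± 0.11 on the log2 scale (SE), and Non1 was lower at -1.13 ± 0.12. Scaled by library size only, 2 genes of the list remained higher (Tif-IA at 1.26 and Surf6 at 0.58) and 17 lower. That is 9.52% higher and 81.0% lower, where 22.1% and 63.5% of all genes were, shares no longer near the background. The list's nop5 and eIF6, each fully covered by other genes, had 0 counts.

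Some single genes in the list of ribosome-associated proteins and regulators of ribosomal protein genes rose by large folds, and others fell. Of 16 genes of ribosome-associated proteins and regulators tested 8 were higher and 6 lower, with a median of 0.24, where 37.1% of all genes were higher and 38.8% lower. Mnt, an antagonist of the transcription factor Myc, was higher by 3.73 ± 0.14 (SE). Trf2, a TBP-related factor used at ribosomal protein promoters in flies, was higher by 3.35 ± 0.14 (SE). Xrp1, a transcription factor that rises in cells lacking a ribosomal protein gene copy, was higher by 3.06 ± 0.14 (SE). The kinase gene S6k was higher by 2.81 ± 0.13 (SE). All 4 were also higher with library size alone, by 2.88, 2.50, 2.20 and 1.95. Another gene overlaps 20.3% of S6k and 10.1% of Trf2. In the other direction, rept (-0.80), Dref (-0.71) and pont (-0.57) of this list were lower on the TMM scale, and M1BP (-0.11) was not called. Myc, Irbp18 and S6kII are each fully covered by other genes and had 0 counts.

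Mitochondrial ribosomal protein genes, nuclear genes for the ribosome of the organelle, had a share of lower calls near that of all genes tested on the TMM scale. Of 71 tested among 73, 26 were lower and 7 higher, so 36.6% were lower where 38.8% of all genes were, against 60.0% of the cytosolic members. Higher calls were not near the background, at 9.86% where 37.1% of all genes were higher, against 3.53% of the cytosolic members. Their median was -0.20 and the interquartile range was 0.63. Their share of counts was 0.172% and 0.166% in the IP and 0.318% and 0.348% in the input, a ratio of input to IP of 1.98 against 2.38 for the cytosolic genes. Whether these 2 ratios differ was not tested. Scaled by library size only, 64 of the mitochondrial genes were lower and 1, mRpS5, was higher, so that 90.1% were lower where 63.5% of all genes were, a share no longer near the background. On the TMM scale mRpS5 (2.12) and mRpS23 (1.16) were higher, and mRpS22 (-1.05) and mRpS29 (-1.04) lower.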

How the data were processed

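Raw counts of reads in each gene were deposited for 2 PABP IP and 2 input libraries, per the file headers. Per the submitters' processing notes software included STAR 2.7.3a, Subread 2.0.0 (featureCounts), DESeq2, cutadapt 2.9 and SAMtools 1.10. Settings, strandedness, treatment of duplicates and the build: not given in the sources used here. For all 92 members, the deposited gene length equals the RefSeq gene span (Release 6 plus ISO1 MT), with 90 matched by symbol and the rest by synonym (introns included); that table served for names, lengths and overlaps only. The authors' deposited DESeq2 table holds log2 fold changes with p-values, a Wald score and a normalized signal; dividing counts by that signal gave a constant factor in each library (3.22, 3.68, 1.09 and 1.51).

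The main test was that of edgeR 4.0.16 (R 4.3.3) on the counts (filterByExpr with minimum count 10, TMM factors of 0.760, 0.728, 1.33 and 1.36, glmQLFTest, two-sided), after a check on simulated counts. Far fewer genes were changed in the simulation than were called here, so it did not check TMM scaling under so broad a change. Each SE was obtained as log2 fold change divided by the root of F. A row without a gene name, at most 0.000418% of counts, was left out. CPM values use TMM library sizes. Pairs were compared by the log2 ratio of counts with 0.5 added and an exact permutation over libraries (scipy 1.17.1), and shares carry 95% Wilson intervals (statsmodels 0.14.6). Replicates were not copies of one library, with a chi-square of 7.93 (IP) and 2.85 (input) per degree of freedom. Alternatives were RLE, upper-quartile, library-size, reduced-gene TMM and the authors' factors, 2 count filters, DESeq2 1.42.0, limma-voom (limma 3.58.1), each library left out, a replicate block, and 0.01 as the threshold.

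Members and lists were chosen with earlier results of these data known. Named genes were all genes of duplicate pairs, the stalk genes RpLP0, RpLP1 and RpLP2, the ubiquitin fusions, RpS6, the 5 highest and 5 lowest members, the 5 highest per length in the input, members called in the rarer direction, and up to 4 genes of lowest p per other list. Genes of the 5S particle and the tunnel exit, RpL12, RpL23, RpL27A, RpS9, Rack1, sta and eEF1alpha1 were chosen after their values were seen. So were Dref, M1BP, pont, rept and marker genes that went against their list. From the biogenesis list pes was left out, since in the files this symbol is the scavenger receptor gene peste. eEF3 matched no gene.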

Additional observations from a re-analysis of the deposited data

How the results depend on the processing

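The count of members lower in the IP was 51 and became 82 with the authors' size factors, 85 with library size alone and 82 with upper-quartile factors. The count higher was 3 and became 0 under each of these scalings. The share of all genes called lower went from 38.8% to 53.9%, 63.5% and 57.3% in that order. Their share called higher went from 37.1% to 27.5%, 22.1% and 25.8%. The members' median was -0.88, -1.23 and -0.99 in that order (large subunit -0.85, -1.20 and -0.96, small subunit -0.88, -1.23 and -0.996). RpL35 turned to -0.0909, -0.44 and -0.20 and RpL37a to -0.16, -0.51 and -0.27, and RpS27 to -0.35 with library size alone and -0.10 with upper-quartile factors. Genes not called on the TMM scale turned below 0 in the same order of scalings, RpS5a to -0.445, -0.796 and -0.558, RpS10b to -0.442, -0.794 and -0.555, RpS24 to -0.308, -0.660 and -0.421, and eEF5 to -0.244, -0.597 and -0.357. RpL21 turned above 0 in DESeq2 (0.0833), with RLE (0.0536) and without a count filter (0.0472), and RpL40 in DESeq2 (0.0204). With 1 library left out, none of the genes that ran across 0 was called there: RpL21 ran from -0.0447 to 0.00638 (0.00235 without PABP IP 1, 0.00638 without input 2), RpL40 from -0.171 to 0.0144, RpS5a from -0.0573 to 0.168 and RpS10b from -0.0436 to 0.162 (-0.00588 without input 1). With 1 library left out, the members' medians ran from -0.49 to -0.26 (large subunit -0.49 to -0.26, small subunit -0.49 to -0.27). The difference in the log2 ratio of large to small subunit ran from -0.11 to -0.08, and for the pairs from 1.97 to 2.17 (RpS5a), 0.16 to 0.27 (RpS14a), 0.55 to 0.59 (RpS15Aa), -0.27 to -0.15 (RpL24), -0.87 to -0.40 (RpLP0) and -0.228 to 0.0771 (RpL34b), where the last changed sign without PABP IP 1 or input 1. In DESeq2 36 members were lower (42.4%, where 24.99% of all genes were). With the replicate number as a block 45 were lower (52.9%, against 38.2%) and 2 higher (2.35%, against 36.6%). The difference in the log2 ratio of RpS5a to RpS5b stayed at 2.07. With 1 IP and 1 input library per replicate number, a block could not change this difference. The numbers share no label beyond themselves, and their deviations correlated at -0.0962 across genes. Over 67 named genes and 938 comparisons with alternatives, 30 changed sign, 20 others lost and 29 others gained a call. Input depth limits RpL10Aa, RpL22-like and RpS19b, with 9 to 24 counts per input library.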

Other observations

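Members also differ in how widely their protein occurs in living things. A group of 32 members encodes proteins with a counterpart in bacteria, and 46 main copies encode proteins without one. This grouping was made after the values were seen and carries no test. Among the universal proteins 21 of 32 were lower in the IP and 1, RpL35, was higher, and the median was -0.49 (log2 of IP over input, TMM scale). Of the 44 others that were tested, 21 were lower and 2, RpS27 and RpL37a, higher, with a median of -0.26. For comparison with both groups, 38.8% of all genes tested were lower and 37.1% higher. The gap was wider in the large subunit (-0.64 over 18 genes against -0.26 over 28) than in the small subunit (-0.37 over 14 against -0.30 over 16). The 9 minor and like copies that were tested were all lower, with a median of -0.76, where 38.8% of all genes tested were lower. In DESeq2 5 of the 9 were not called. RpL10Aa, RpL22-like and RpS19b passed the count filter only through the input libraries. Copies this rare in the IP could be tested only if they were high enough in the input. That all 9 were lower therefore follows in part from the filter.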
